A study of Mus musculus with 12 samples.

Results

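Amy1, its upstream neighbour Rnpc3 and the amylase gene Amy2a5 were examined in RNA from mouse male germ cells with and without a working Morc1 gene, together with the copies of transposable elements (TEs) annotated along the Amy1 and Rnpc3 locus on chromosome 3. The genes were taken by symbol, and the TE copies by position in a window from below the pancreatic amylase gene next to Amy1 to beyond the far end of Rnpc3. Of the 3 genes, Amy1 and Rnpc3 are among the 35666 genes of the gene table, and Amy2a5 was not analysed here. The window holds 43 of the 298593 copies of the TE table. Amy1 was chosen by its value in the comparison of knockout with heterozygous cells, and the other genes and the copies by their place beside it. That comparison is therefore given for all of them as a description. Where limma calls among them are counted, the count stands beside the share over all features and supports nothing, since the choice used the same comparison.

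Amylases cleave the internal bonds of starch and glycogen. In the mouse, Amy1 encodes the enzyme of saliva and liver, and the neighbouring Amy2 genes encode the pancreatic enzyme. Amy1 is known for alternative promoters, the upstream one used in the parotid gland and the downstream one in the liver. Rnpc3 encodes the 65K protein of the U11/U12 particle, which recognises the rare introns removed by the minor spliceosome. MORC1 is an ATPase made in germ cells and known for its part in the silencing of TEs in the male germ line.

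The cells were gonocytes, the germ cells of the newborn testis, isolated from the testes of mice that all carried the Mvh-Venus germ cell reporter. The 6 libraries used here came from postnatal day 0 (P0): 3 from Morc1 (+/-) mice (het) and 3 from Morc1 (-/-) mice (KO). The het group carries 1 intact Morc1 copy and is not wild type. The 6 samples of postnatal day 3 were not analysed here. Values of single libraries are given in the order of replicates 1, 2 and 3. The labels do not say how many animals went into a sample, so the p-values measure only the spread between these samples, which may be partly technical. The gene table held 28363683 to 32816861 reads per library. The targeted gene, Morc1, averaged 1499 ± 255 normalized counts in KO (reads divided by the size factor of the library, SD, n = 3), 23.8% of the 6286 ± 1874 in het. All 8 gonocyte markers examined were detected in every library, with summed levels of 118804 to 161597 normalized counts in het and 116842 to 157933 in KO. Het replicate 3 stood apart in markers of Leydig cells, the steroid-making cells of the testis: their summed level was 24921 normalized counts there and 510 to 1079 in the other 5 libraries.

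Amy1 (ENSMUSG00000074264) and Rnpc3 (ENSMUSG00000027981) are protein-coding genes on the minus strand of chromosome 3, at 113555710 to 113606699 and 113605067 to 113630149 (GRCm38, GENCODE release M21). Transcription of both runs from higher to lower coordinates, and Rnpc3 lies upstream. The annotation gives Amy1 a 5′ end at 113577830 for the main transcript, here the upstream start, and another at 113574762, 3.07 kb further on, here the downstream start. A long transcript with no annotated 3′ end begins at 113606699, 28.87 kb above the upstream start and inside Rnpc3. The bases before these Amy1 starts and before Rnpc3 are shown to compare the promoters of the gene that was low in KO with that of its neighbour. They are from RefSeq (GRCm38.p6), read 5′ to 3′ on the minus strand, end at the base before the annotated 5′ end, and have CpG dinucleotides and the letters TATAAA in capitals.
Amy1 upstream start, chr3:113577831-113578000: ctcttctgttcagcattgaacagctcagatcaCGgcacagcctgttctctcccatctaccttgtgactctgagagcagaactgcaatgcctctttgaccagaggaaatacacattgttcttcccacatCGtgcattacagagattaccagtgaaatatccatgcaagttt
Amy1 downstream start, chr3:113574763-113575012: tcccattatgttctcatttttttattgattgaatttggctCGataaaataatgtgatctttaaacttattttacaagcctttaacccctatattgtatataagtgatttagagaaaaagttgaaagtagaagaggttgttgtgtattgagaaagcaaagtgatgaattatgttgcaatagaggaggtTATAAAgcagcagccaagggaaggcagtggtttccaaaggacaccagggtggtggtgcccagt
Rnpc3 start, chr3:113630150-113630399: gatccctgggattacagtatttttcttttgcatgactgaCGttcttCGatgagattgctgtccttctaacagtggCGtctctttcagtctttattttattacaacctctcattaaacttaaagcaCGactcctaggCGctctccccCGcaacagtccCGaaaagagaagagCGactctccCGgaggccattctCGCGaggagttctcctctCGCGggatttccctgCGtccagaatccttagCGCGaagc

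The windows differ in CpG content. The 170 bases before the upstream start of Amy1 hold 2 CpG dinucleotides, the 250 bases before its downstream start hold 1, and the 250 bases before Rnpc3 hold 16. Over 32851 promoter windows of all genes the median was 4 in 170 bases and 6 in 250 bases. The letters TATAAA, searched on both strands, occur in the window of the downstream start, 63 bases before it, and not in the other windows. They occur in 12.4% of all 250-base windows and 8.40% of all 170-base windows. RefSeq places the upstream start 80 bases further downstream than GENCODE does. Those 80 bases were not searched for TATAAA or CpG. The windows of all genes end at the RefSeq start, so the 170-base comparison is not like for like. No listed TE copy overlaps any of these windows, and the gene values do not tell the alternative starts apart.

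Amy1 was low in all KO libraries. It had 422, 299 and 489 normalized counts in het against 85.1, 116 and 132 in KO. Every KO library lay below every het library. The het mean was 403 ± 96.0 and the KO mean 111 ± 23.9 (SD, n = 3), so the het level was 3.63 times that of KO. These values rest on 310 to 501 reads per het library and 86 to 135 per KO library. On the log2(value + 1) scale the limma difference, KO minus het, was -1.85 (SE 0.32). Among the 26005 genes that reached a mean of 10, limma called 11 (0.0423%) lower in KO, Amy1 among them, and 0.431% higher (threshold 0.05 on the adjusted p). Every KO library lay below every het library for 5.57% of the tested genes and above for 7.17%. These shares are background only, since the choice of Amy1 used the same comparison. Of 6 fits that each left out 1 library, 0 called Amy1, although the difference stayed between -2.05 and -1.67.

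Rnpc3 gave overlapping groups. The het libraries had 1230, 1185 and 1300 normalized counts, and the KO libraries had 1170, 1315 and 799. KO replicate 3 was the lowest of the 6 libraries, and KO replicate 2 the highest. The het mean was 1238 ± 57.9 and the KO mean 1094 ± 266 (SD, n = 3). The limma difference was -0.21 (SE 0.24), and without KO replicate 3 it was 0.003 (SE 0.21). Rnpc3 was thus close between genotypes in 5 of the libraries, with KO replicate 3 apart.

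Set against its neighbour within each library, Amy1 stayed low in KO. It had 34.3, 25.3 and 37.6 normalized counts per 100 of Rnpc3 in het against 7.28, 8.80 and 16.6 in KO. The groups did not overlap, with means of 32.4 ± 6.39 and 10.9 ± 4.98 (SD, n = 3). Per kilobase of annotated exon, the level of Amy1 was 117 normalized counts in het and 32.2 in KO, against 187 and 165 for Rnpc3. In het cells Amy1 was below Rnpc3 on this scale in every library, at 86.9 to 142 against 179 to 196, and in KO it was lower still, at 24.7 to 38.4 against 120.5 to 198.

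**Figure D1:**
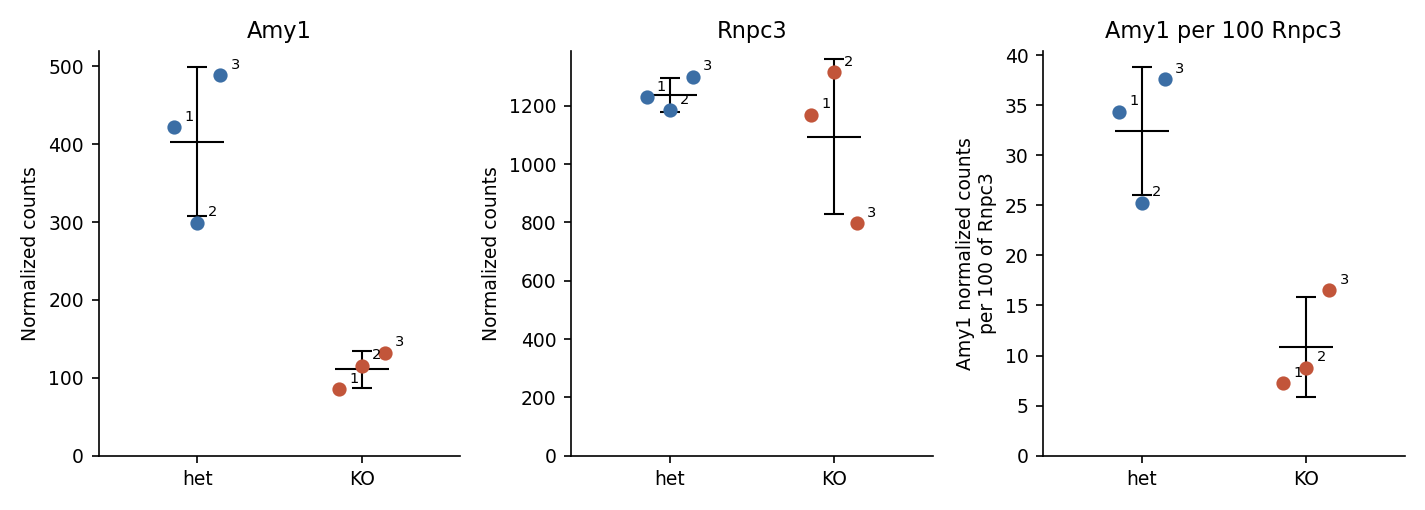
Normalized counts of Amy1 and Rnpc3 and the ratio of Amy1 to Rnpc3 (vertical axes, each from 0) in 3 het and 3 KO libraries. Points are libraries with their replicate number, and bars give the mean and SD. Amy1 is at 299 to 489 in het and 85.1 to 132 in KO, while the Rnpc3 values of the genotypes overlap.

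The annotations of these genes share sequence, which bears on what each value counts. Their spans overlap by 1633 bases, and the 1128 bases of the first exon of the long Amy1 transcript lie wholly within exons of Rnpc3. They make up 32.7% of the exon bases of Amy1 and 17.0% of those of Rnpc3. How reads in these shared bases were assigned is not given in the sources used here. Pancreatic amylase genes share little exact sequence with Amy1 at read-like lengths. Of 1936 windows of 50 bases along the main Amy1 transcript, 52 (2.69%) also occur in transcripts of another gene. The pseudogene Amy2b holds 51 (2.63%) of the 1936 and Amy2a5 holds 34 (1.76%). The longest run in common with Amy2a5 is shown as a stretch where a short read could not be told apart between the enzymes. Not all of the windows shared with Amy2a5 lie within this run. The run is 73 bases long, coding throughout, and spans exons 5 and 6 of the 11 exons of the main Amy1 transcript (GENCODE M21, minus strand, between 113562760 and 113563515).
Shared run of Amy1 and Amy2a5: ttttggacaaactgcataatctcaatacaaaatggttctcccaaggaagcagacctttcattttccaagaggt

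TE copies along the locus gave a view of reads outside the exons. Most are in introns, so reads on them can come from unspliced RNA of the host gene as well as from the element, and these sources cannot be told apart here. The TE table gives no family names. Of the 43 copies, 7 passed the mean of 10 normalized counts, and 0 of these were called by limma in either direction. Over all 49781 tested copies, 15.6% were called higher and 0.735% lower in KO. By edgeR and DESeq2 on recovered reads the count in the window was also 0. In normalized counts, every KO library lay below every het library for 3 of the 43 copies and above for 1. All of these separated copies were under the mean of 10, and the 7 tested copies all gave overlapping groups. Among the tested copies of the whole table the shares were 7.58% and 22.8%, which are no like background for copies under that mean.

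Within Amy1, downstream of its upstream start, the summed reads on TE copies were fewer in KO, and the separation of the groups rested on 1 copy. The 8 copies there cover 6093 bases and together had 37, 50 and 65 reads in het against 20, 12 and 27 in KO. As reads per 1000000 gene reads (RPM) these are 1.15, 1.52 and 2.25 in het and 0.624, 0.423 and 0.833 in KO, so the groups did not overlap. The means were 1.64 ± 0.563 in het and 0.627 ± 0.205 in KO (SD, n = 3), the latter 38.2% of the former. The copy of highest mean in normalized counts is described next. Without it, the other 7 had 0.712, 1.07 and 1.84 RPM in het and 0.561, 0.423 and 0.802 in KO. The groups then overlapped, KO replicate 3 lying above het replicate 1, and the KO mean was 49.4% of het. This alternative was chosen after seeing the data. The copy left out is itself 1 of those with every KO library below every het library. Leaving out the copy with the most reads instead was not tried. The reads on single copies are few, and none of the 8 reached the mean of 10.

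The copy of highest mean in normalized counts was the one nearest to the 3′ end of the gene, at 113563776 to 113564484. This copy has 709 bases on the plus strand, in an intron of Amy1 and opposite to its strand. It had 14, 15 and 12 reads in het against 2, 0 and 1 in KO. A copy of 479 bases on the minus strand at 113575732 to 113576210, between the upstream and downstream starts, had 1, 5 and 6 reads in het and 0, 1 and 0 in KO. Its groups were apart in normalized counts but not in reads, where het replicate 1 and KO replicate 2 both had 1. The other 6 copies overlapped between genotypes, and 1 of them, at 113571942 to 113572671, had 23 reads in het and 25 in KO over the 3 libraries. By reads, though not by normalized counts, that copy was the highest of the 8.

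Above the upstream start of Amy1 the genotypes overlapped. The 16 copies between that start and the 3′ end of Rnpc3, all within the first intron of the long Amy1 transcript, had 4.99, 3.26 and 15.6 RPM in het against 6.46, 8.0 and 6.26 in KO. Het replicate 3 was the highest and het replicate 2 the lowest, and the KO libraries lay between them. The KO mean was 86.8% of the het mean, and without het replicate 3 the direction turned, with KO at 1.68 times het. The largest of these copies by level, 2928 bases on the minus strand at 113591517 to 113594444, had 38.0, 41.5 and 210 normalized counts in het and 63.9, 89.8 and 54.7 in KO. Without it, the other 15 copies had KO libraries at 3.91 to 4.37 RPM and het libraries at 2.13 to 8.04.

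The 5 other tested copies of this stretch gave overlapping groups. The copy at 113596550 to 113599690, 3141 bases on the plus strand, had 43.2, 23.6 and 42.2 normalized counts in het against 42.0, 12.4 and 43.6 in KO. The copies at 113594439 to 113594860, 113595685 to 113596214 and 113596215 to 113596549 had limma differences of -0.48 (SE 0.58), -0.24 (SE 0.67) and -0.35 (SE 0.84). The copy at 113588580 to 113589743 had -2.22 (SE 1.34), with 0 reads in KO replicates 2 and 3 and its highest KO value, 19.1 normalized counts, in KO replicate 1.

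A copy over the shared exon gave overlapping groups. It covers 370 bases at 113606520 to 113606889, overlaps exons of both the long Amy1 transcript and Rnpc3, and had 64.3, 77.4 and 72.8 normalized counts in het against 77.3, 79.7 and 54.7 in KO. Its limma difference was -0.03 (SE 0.38). In normalized counts KO replicate 3 was the lowest library, but in reads het replicate 1 was, with 61 against 64 in KO replicate 3. All 7 copies within Rnpc3 together had 2.32 to 2.88 RPM in het and 2.62 to 3.95 in KO, and the 12 copies upstream of Rnpc3 had 0.960 to 2.84 in het and 1.12 to 2.25 in KO. In both stretches the genotypes overlapped. Among the copies upstream of Rnpc3, the intergenic copy at 113632717 to 113633198 had 1.05, 2.24 and 20.1 normalized counts in het and 0 in all KO libraries, and the one at 113634356 to 113634573 was higher in every KO library than in any het library.

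**Figure D2:**
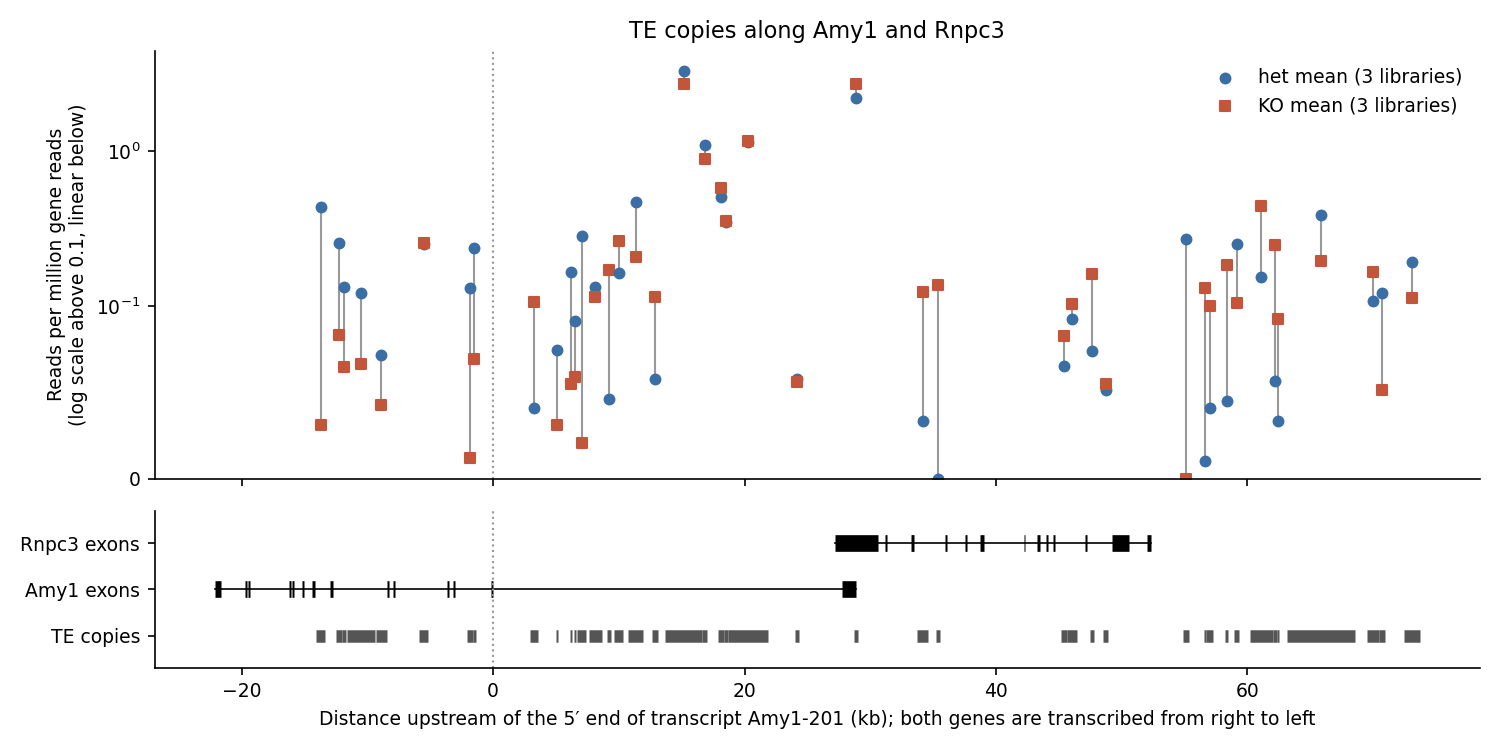
Mean RPM (vertical axis, log scale above 0.1) on each of the 43 TE copies against the distance of the copy from the upstream start of Amy1 (kb, positive upstream), with the exons of both genes and the copies drawn to scale below. Circles are het means and squares KO means of 3 libraries. Left of the dotted line, at the start, the KO means lie below the het means for 7 of the 8 copies, and right of it they lie on either side.

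**Figure D3:**
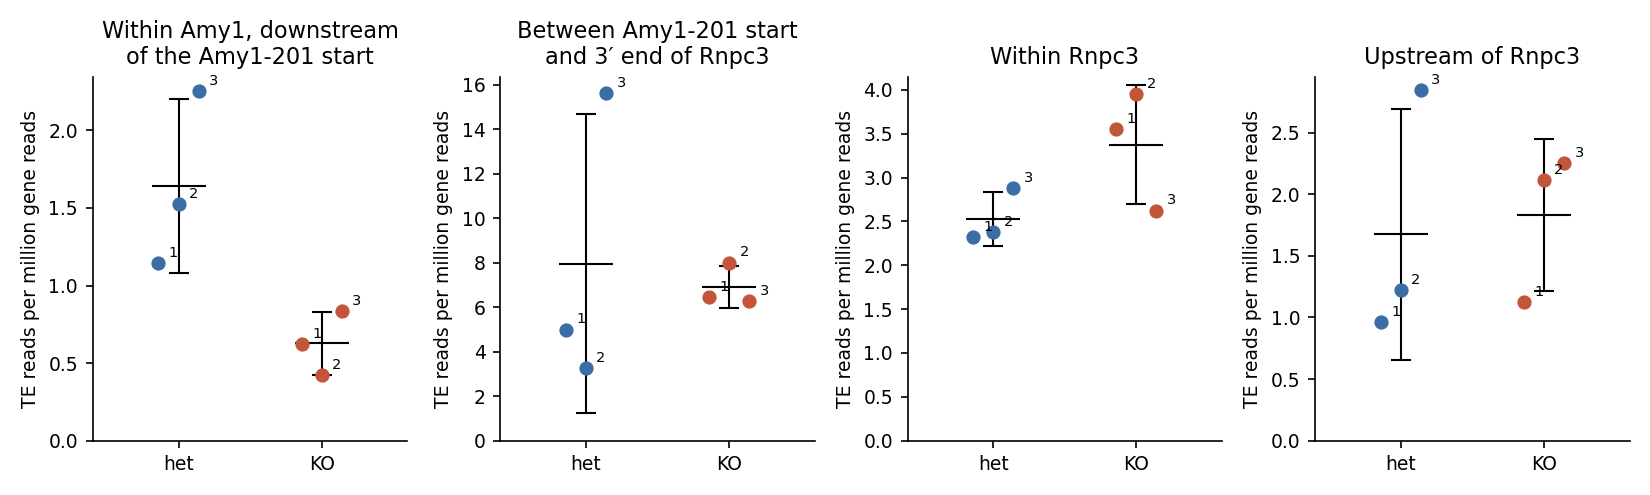
Summed TE RPM (vertical axes, each from 0) in the 4 stretches of the locus, by library, with the mean and SD. The genotypes separate within Amy1, at 1.15 to 2.25 in het and 0.423 to 0.833 in KO, and overlap in the other stretches. Without its copy of highest mean in normalized counts the Amy1 stretch overlaps too, at 0.712 to 1.84 in het and 0.423 to 0.802 in KO.

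Other amylase genes had few reads. Amy2b, annotated as an unprocessed pseudogene 398982 bases downstream of Amy1, had 17.2, 2.90 and 8.78 normalized counts in het against 1.98, 2.07 and 4.90 in KO, and did not pass the filter. The pseudogene Amy2-ps1, 349012 bases away, was seen mainly in KO: 0.954, 8.69 and 0 normalized counts in het and 52.4, 33.1 and 80.3 in KO. Its limma difference of 4.31 (SE 0.95) did not pass (adjusted p = 0.121). It passed with DESeq2 on recovered reads (adjusted p = 0.00292) and in limma with a pseudocount of 10 (adjusted p = 0.0438). Amy2-ps1 reached the filter's mean of 10 only through KO (het mean 3.22, KO mean 55.3), so these p-values support nothing. The 3 listed TE copies overlapping the span of Amy2-ps1 had 11, 1 and 0 reads in het and 51, 37 and 34 in KO. Whether the gene and these copies count the same RNA was not tested. Amy2a1, Amy2a2, Amy2a3 and Amy2a4 were not analysed here.

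The 10 tested genes nearest to the locus, 5 on each side, included 0 that passed in limma, with 2 at an unadjusted p under 0.05, 0 in edgeR and 1, Amy2-ps1, in DESeq2. Over all tested genes 0.473% were called in either direction by limma. Besides Amy2-ps1, the other gene under 0.05 was Utp14b-ps1, a processed pseudogene 534 kb away, with 0, 0 and 1.95 normalized counts in het and 5.94, 25.8 and 27.4 in KO (limma difference 3.60, SE 1.2, adjusted p = 0.444). Both pseudogenes were tested only because KO lifted them over the mean of 10, so their p-values support nothing. The nearest of the tested protein-coding genes, Col11a1, encodes a fibrillar collagen chain and lies 400 kb upstream of Rnpc3. It had 1097, 887 and 2061 normalized counts in het and 862, 1849 and 822 in KO, which overlapped (limma difference -0.20, SE 0.39, adjusted p = 0.959). S1pr1, a receptor for sphingosine 1-phosphate, had a limma difference of -0.50 (SE 0.32) and Ntng1, a netrin family protein, one of -0.44 (SE 0.38). The remaining 5, Olfm3, Prmt6, Gm9889, A930005H10Rik and C130013H08Rik, ran from -0.80 to 0.40, and all overlapped between genotypes. Apart from Amy2-ps1, Utp14b-ps1 and Col11a1, these genes lie 1274 kb (Olfm3) to 3412 kb (Ntng1) away. They therefore say little about the surroundings of Amy1.

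Genes that work with Rnpc3 were examined as a list. Of 17 measured members of the minor spliceosome and of its assembly, 0 passed in limma, edgeR or DESeq2, and 1 had a limma unadjusted p under 0.05. Their median log2 difference was 0.18, against -0.02 over all tested genes, with 12 above 0 and 5 below. Without het replicate 3 the median was 0.05. Ccdc84, a splicing factor of the minor spliceosome, had 1797, 1779 and 2265 normalized counts in het and 982, 1279 and 1220 in KO (limma difference -0.75, SE 0.22, adjusted p = 0.339). Its groups did not overlap. Every KO library lay below every het library for 2 of the 17 genes and above for 1, against 5.57% and 7.17% of all tested genes. Rnu12, the U12 small nuclear RNA gene, had a limma difference of -0.92 (SE 0.45, adjusted p = 0.782), with 48.6 to 89.7 in het and 26.9 to 37.6 in KO. Snrnp35, which encodes a U11 protein, and Scnm1, which acts in minor intron splicing, had limma differences of 0.64 (SE 0.30) and 0.52 (SE 0.27), with overlapping groups. Pdcd7, which encodes the 59K protein that binds the Rnpc3 product, had one of 0.36 (SE 0.34).

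Genes of polysaccharide metabolism and of the tissues where amylase is abundant were examined next. Of 12 genes of starch and glycogen metabolism, 0 passed in limma or edgeR and 1 had a limma unadjusted p under 0.05, with a median difference of 0.13, or -0.08 without het replicate 3. This was Gys2, the liver glycogen synthase, at 326, 316 and 330 normalized counts in het and 860, 505 and 1261 in KO (limma difference 1.33, SE 0.33, adjusted p = 0.183). It passed in DESeq2 on recovered reads. Gaa, the lysosomal enzyme that breaks down glycogen, had a limma difference of -0.73 (SE 0.34, adjusted p = 0.753).

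Of 13 genes of pancreas acinar cells, 0 passed in limma, edgeR or DESeq2 and 1 had a limma unadjusted p under 0.05, with a median difference of -0.14. This was Clps, which encodes the lipase cofactor colipase, with 17.2, 20.3 and 77.0 normalized counts in het and 2.97, 13.4 and 9.80 in KO (limma difference -1.87, SE 0.82, adjusted p = 0.704). Try4, a trypsin gene, had a limma difference of 1.04 (SE 0.61, adjusted p = 0.827). The summed level of the acinar genes was 3246 to 3502 normalized counts in het and 2165 to 3870 in KO. Of 5 tested salivary gland genes, 0 passed with any of the 3 tools and 0 had a limma unadjusted p under 0.05. The median difference was -0.09 by limma and 0.44 by edgeR. Car6, a secreted carbonic anhydrase, had the smallest p, with a limma difference of 0.41 (SE 0.26, adjusted p = 0.850), and Muc19, a mucin, had one of 0.76 (SE 0.81).

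**Figure D4:**
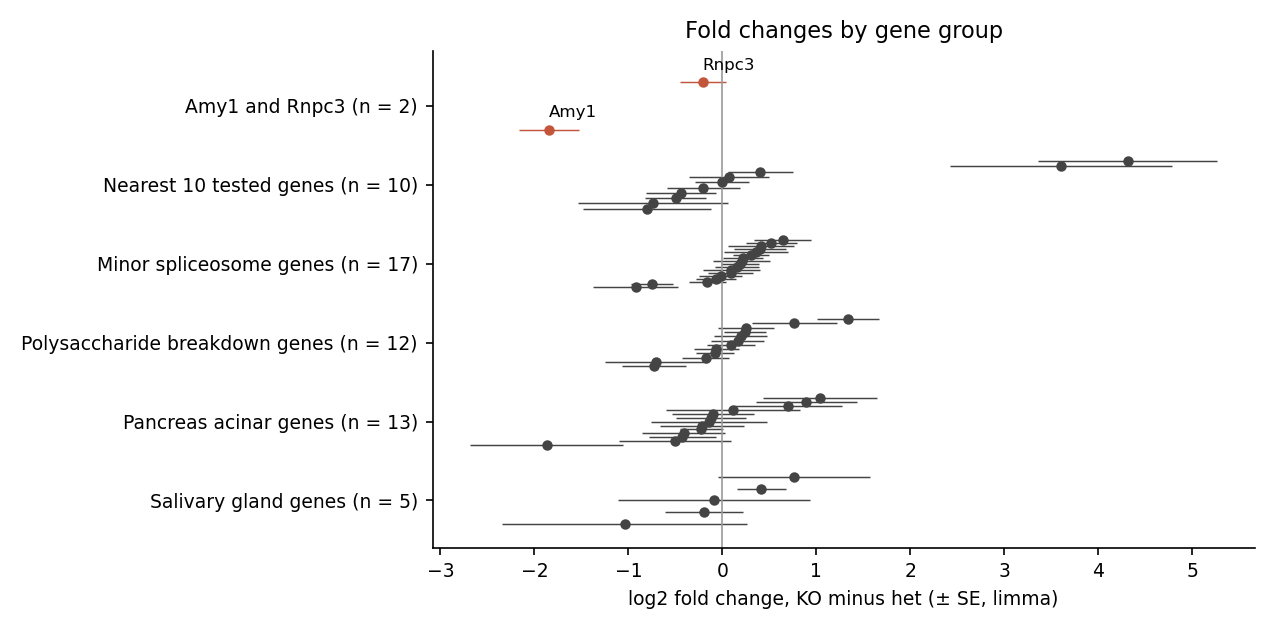
Difference between KO and het on the log2 scale (horizontal axis, limma, with SE) for Amy1 and Rnpc3, the 10 nearest tested genes and 4 gene lists. Each point is a gene. Amy1 is at -1.85 and Rnpc3 at -0.21, and both points far to the right among the nearest genes are the pseudogenes Amy2-ps1 and Utp14b-ps1.

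Markers of Sertoli cells, the supporting cells of the seminiferous tubules, were, like Amy1, lower in KO on average. All 8 had a limma difference below 0 (median -0.69), and for 4 of them every KO library lay below every het library. Over all tested genes 51.6% had a difference below 0, and 5.57% had every KO library below every het library. With limma 0 of the 8 passed, with 4 at an unadjusted p under 0.05. With edgeR the count was also 0, and with DESeq2 it was 1, Clu. Without het replicate 3, 7 of the 8 were below 0, with a median of -0.43. Their summed level was 24965, 17918 and 38072 normalized counts in het against 12854, 14881 and 18415 in KO. The ranges overlap, and none of the 8 was at 0 in any library. Clu and Inha were the largest parts of this sum, with het means of 9849 and 10302 normalized counts against 26985 for the sum. In the het group the order of the libraries was the same for Amy1 as for this sum, replicate 3 above 1 above 2. In KO it was also the same, replicate 3 above 2 above 1. Of the single markers only Inha had both of these orders. In KO, Sox9, Amh, Inhbb and Dhh were highest in replicate 2, Gata4 in replicate 1, and Clu was lowest in replicate 2. Wt1 was highest in het replicate 1.

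Per 1000 of these marker counts, Amy1 had 16.9, 16.7 and 12.8 normalized counts in het against 6.62, 7.78 and 7.18 in KO. The groups did not overlap on this scale, with means of 15.5 ± 2.30 and 7.19 ± 0.578 (SD, n = 3). The het level was 2.15 times that of KO, against 3.63 times for Amy1 without this scaling and 1.75 times for the marker sum. In isolated cells measured in bulk, fewer cells of a type and less RNA per cell cannot be told apart.

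**Figure D5:**
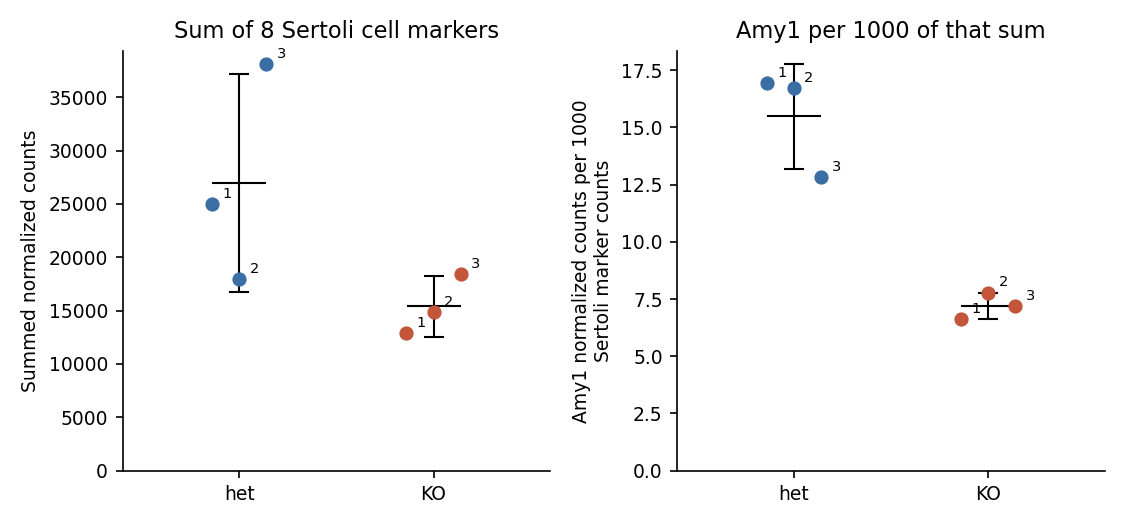
Summed normalized counts of the 8 Sertoli cell markers and Amy1 per 1000 of that sum (vertical axes, each from 0) in 3 het and 3 KO libraries, with the mean and SD. The marker sums overlap between genotypes, and the scaled Amy1 values do not, at 12.8 to 16.9 in het and 6.62 to 7.78 in KO.

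The 5 Leydig cell markers also all had differences below 0, with a median of -1.99, and their sum, like Amy1, was highest in het replicate 3. With limma, edgeR and DESeq2 0 of the 5 passed, with 0, 5 and 0 at an unadjusted p under 0.05. Their sums in the libraries other than het replicate 3 were 776 and 1079 in het and 510 to 1075 in KO. Without het replicate 3 the Amy1 difference was -1.69 (SE 0.35). Markers of peritubular and stromal cells summed to 1884 to 2102 normalized counts in het and 2062 to 2683 in KO, and markers of endothelial and blood cells to 1749 to 1943 in het and 1431 to 2391 in KO. The part of these cell types, Sertoli and Leydig cells included, in the Amy1 values was not tested.

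The genes whose levels ran most like Amy1 over the 6 libraries were found by Pearson's r on the log2 scale among 11232 genes, those with an SD on that scale of at least 0.5 times that of Amy1. They were Snord72, a small nucleolar RNA gene (r = 0.995), Cfap299, a cilium- and flagellum-associated gene (r = 0.987), the lncRNA AC163629.1 (r = 0.982), Gm43133 (r = 0.979) and Ifi27, an interferon-inducible gene (r = 0.975). For each of these 5 genes every KO library lay below every het library, so the points share the genotype groups. Ifi27 had 1636, 1195 and 2050 normalized counts in het and 692, 706 and 901 in KO (limma difference -1.06, SE 0.26, adjusted p = 0.179). The genes most like Rnpc3, among 25419, were A930038B10Rik, Olfr283, Gm45165, Gm12043 and Cdc42ep4, with r from 0.996 to 0.998. Each of these was lowest in KO replicate 3, as Rnpc3 was. Cdc42ep4, an effector of the small GTPase Cdc42, had 655, 519 and 724 normalized counts in het and 531, 696 and 167 in KO.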

How the data were processed

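Per the submitters' processing notes, the tools were bcl2fastq 2.20, cutadapt 1.18, HISAT2 2.1.0, featureCounts 1.5.2 and DESeq2 1.26.0 and the builds mm10 and GRCm38. Strand handling, multi-mapping reads and the TE annotation are not given in the sources used here. Both deposited tables hold a signal, read counts that the authors divided by 1 size factor per library. All values (100%) were whole multiples of 1 step per library within 0.01, and reads were recovered from them. Every listed gene and copy has at least 10 reads over the 6 libraries. Columns were assigned by genotype and replicate number, and the stage of the TE table comes from its name. TE starts were read as counted from 1.

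Limma 3.58.1 (R 4.3.3, eBayes with trend, two-sided) was fitted to log2(value + 1) for all features with a mean of at least 10, with Benjamini-Hochberg adjustment over each table, and checked on simulated data. A fold change on this scale understates that of low features. Alternatives were edgeR 4.0.16 and DESeq2 1.42.0 on recovered reads, other pseudocounts and filters, no trend, quantile normalization, gene size factors for the TE copies, a replicate block and leaving out each library. The closest libraries of a group, het replicates 1 and 2, differed by a mean chi-square per gene of 11.1, where counting noise gives about 1. Other pairs within a group were at 70.7 to 106.7. KO replicate 1 was at 27.7 and 24.1 from het replicates 1 and 2, and at 72.7 and 74.6 from KO replicates 2 and 3.

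The members and lists were chosen with earlier results of these data known. Named were the members, the copies that passed the filter, the nearest 10 tested genes, every called gene of each list and the 4 (minor spliceosome) or 2 (other lists) with the smallest p and the 5 genes most like Amy1 and Rnpc3. The 4 copies that separated the genotypes in normalized counts, the copy with like reads in both and Pdcd7 were named after their values were seen. So were the single Sertoli cell markers other than Clu.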

Additional observations from a re-analysis of the deposited data

How the results depend on the processing

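The Amy1 difference kept its sign in all 15 alternatives and moved by less than the spread between libraries. Of the 9 alternatives with all 6 libraries, 6 called Amy1. Limma with a pseudocount of 0.1, limma without trend and the replicate block did not. Rnpc3 ran from -0.36 to 0.0032 when 1 library was left out, the latter without KO replicate 3. Reads on all intronic copies of the window, as the KO mean over the het mean, ran from 0.663 to 1.43 (0.828 with all libraries), and only leaving out het replicate 3 put it above 1. For the copies between Amy1 and Rnpc3 it ran from 0.67 to 1.675 (0.868 with all libraries), above 1 only without het replicate 3. For the intronic copies within Amy1 the range was 0.302 to 0.476. In the window, limma with no filter on low values called 1 copy lower, that at 113563776 to 113564484. Among the nearest genes, a pseudocount of 10 gave 1 call and DESeq2 gave 1. Over all genes, 112 higher and 11 lower calls became 400 and 65 with DESeq2, 70 and 5 when the pseudocount was 0.1, and 64 and 5 under the replicate block, where Amy1 stayed at -1.85. A pseudocount of 10 gave 177 higher, and limma without trend 3 lower. Leaving out 1 library gave 17 to 105 higher and 1 to 7 lower. The causes were not tested. Same-numbered het and KO libraries had deviations correlated at 0.138, -0.163 and -0.0438, and het replicates 2 and 3 were closer to another number. With 3 libraries per group these values cannot show whether same-numbered libraries were handled together. Amy2a5 gave no value. The low reads on single TE copies limit what can be said of each.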
